A study of Mus musculus with 10 samples.

Results

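The genes of the cornified envelope were followed through whole ear skin of 10 mice treated with MC903. The set was taken by symbol. It holds every gene named Sprr or Lce with a digit, together with Lor, Ivl, Hrnr, Flg2, Rptn, Crnn, Crct1, Tgm1, Tgm3, Tgm5, Casp14 and Cdsn. These rules gave 48 of the 41388 genes in the files, namely 16 Sprr genes, 20 Lce genes, 7 other genes of structural proteins, and 5 genes that encode transglutaminases, a protease and an adhesion protein. In the mm10 genome 43 of the 48 lie on chromosome 3, between Lor at 92080271 and the end of Rptn at 93399442, in the epidermal differentiation complex.

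The cornified envelope is the protein shell that takes the place of the plasma membrane when a keratinocyte dies at the skin surface. Transglutaminases join its precursors by bonds that cannot be reversed: involucrin and other scaffold proteins are laid down first, loricrin and small proline-rich (Sprr) proteins reinforce them, and late cornified envelope (Lce) proteins are added last. In skin, Sprr genes are known for their strong induction by inflammation and wounding, and loss of the envelope weakens the barrier against water loss.

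The 6 Experimental libraries and the 4 Littermate libraries came from ear skin of C57Bl/6 mice. Both groups had received MC903 (calipotriol, a vitamin D analogue that causes an itchy inflammation of skin) on the ear at 1 nM every day for 12 days, so no untreated skin enters the comparison. Experimental mice are given as NaV1.8+ beside a floxed gene, which the series text gives as Il4ra F/F and the genotype label as Jak1 F/F. NaV1.8 is a voltage-gated sodium channel made by sensory neurons that signal pain and itch. The Littermate genotype label is WT. What drives recombination is not spelled out by the labels, and the groups are therefore called Experimental and Littermate. The comparison asks how treated skin of the conditional mice differed from that of littermates in these genes.

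Total counts ran from 11520348 to 41935183 in Experimental libraries and from 12865459 to 14324433 in Littermate libraries. Il4ra spanned 130 to 270 normalized CPM in Experimental libraries and 184 to 236 in Littermate libraries, and Jak1 273 to 324 in Experimental and 280 to 335 in Littermate libraries. Neither passed the test (edgeR, adjusted p = 0.678 for Il4ra and 0.815 for Jak1). Scn10a, the gene of NaV1.8, had 2 counts over all 10 libraries, so RNA of skin says little about a deletion in neurons that make it. All 6 keratinocyte markers were present, with a summed level of 24681 to 32473 CPM in Experimental and 27238 to 31597 CPM in Littermate libraries. Of 16830 genes tested over the whole table, 3 passed at an adjusted p of 0.05, which is 0.0178% (edgeR quasi-likelihood test, Benjamini-Hochberg adjustment).

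None of the cornified envelope genes passed that test. Their RNA made up 1.49% to 2.07% of all counts in Experimental libraries and 1.504% to 1.67% in Littermate libraries. The largest differences were higher levels of Sprr2b and Sprr2h, a pair of small proline-rich genes of the same cluster, and of Rptn, the gene of repetin, and a lower level of Lor, the gene of loricrin, in Experimental skin. Only Sprr2h of the 45 tested genes had every Experimental library above every Littermate library, a pattern held by 0.761% of all genes tested, and none had every Experimental library below. In whole skin, fewer cells of a type and less RNA per cell cannot be told apart. The p-values set each group difference against the spread between libraries, estimated with the help of all genes tested. The series text describes the libraries as coming from separate mice.

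Of the 48 genes, 45 had enough counts to be tested, and the log2 fold change (Experimental over Littermate, from edgeR) was positive for 30 of them and negative for 15. Over all genes tested 49.6% were positive and 50.4% negative. The median log2 fold change of the 45 was 0.09, against -0.00 over all genes tested. At an unadjusted p under 0.05, edgeR placed 5 of the 45 higher (Sprr2h, Sprr2b, Rptn, Tgm5 and Crct1), against 3.65% of all genes, and 1 lower (Lor), against 8.1% of all genes. DESeq2 on the same counts called 1 of them, Sprr2h, and 1.52% of the genes it tested. None of the 45 was called under the other settings, which called 0.339% of all genes with voom, 0.264% with no filter on low counts, and, with libraries left out, 2.01% (Littermate 2), 0.168% (Experimental 6), 0.0471% (Littermate 3) and 3.34% (Littermate 2 together with Experimental 6).

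**Figure D1:**
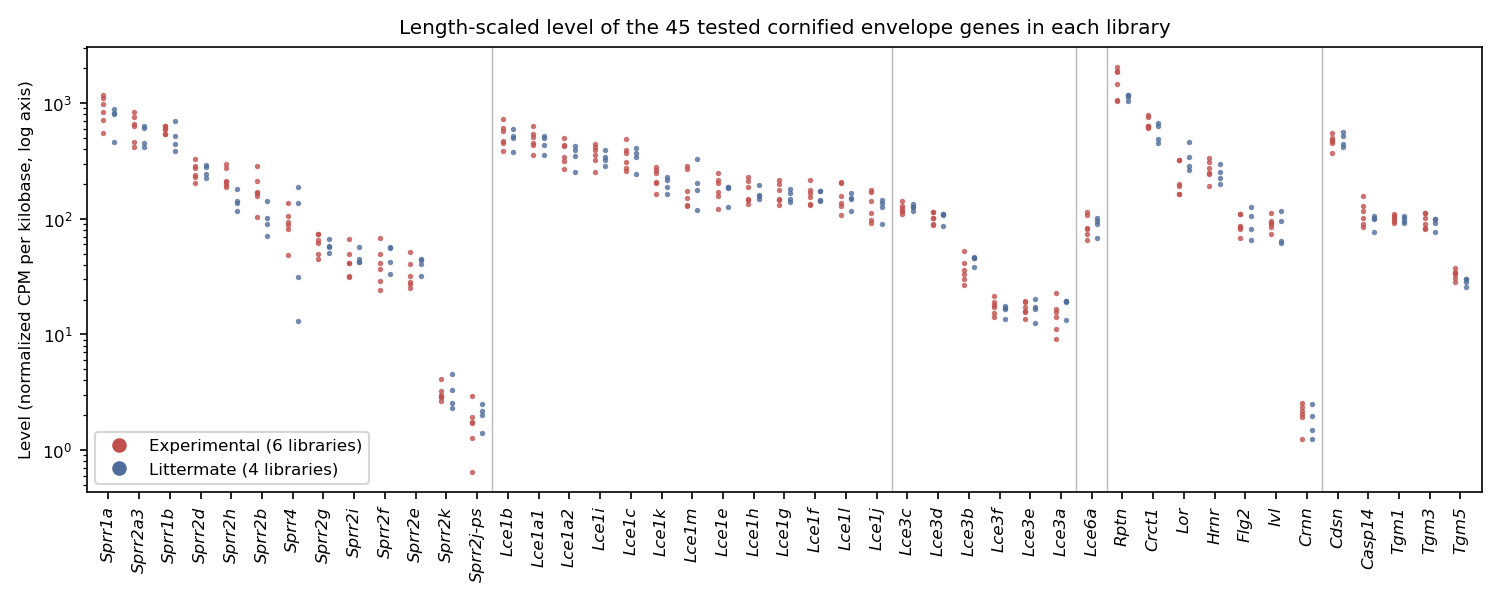
Length-scaled level (normalized CPM per kilobase of gene length, log axis) of each of the 45 tested genes, 1 point per library, with Experimental libraries in red and Littermate libraries in blue. Rptn stands highest and Sprr2j-ps lowest, and the colours overlap for every gene but Sprr2h.

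The genes spanned a wide range of levels. Per kilobase, Rptn averaged 1388 normalized CPM over the 10 libraries, Sprr1a 833, Crct1 630, Sprr2a3 588, Sprr1b 558 and Lce1b 521. At the other end of this length-scaled level stood Sprr2k at 3.15, Crnn at 1.95 and the pseudogene Sprr2j-ps at 1.84. Crnn encodes cornulin, a protein mostly of oral and oesophageal epithelium. Sprr2a1, Sprr2a2 and Sprr3 did not pass the filter on low counts. Sprr3 had 8 counts over all 10 libraries, and 3 counts correspond to 0.0715 to 0.26 CPM at these depths. Sprr2a1 and Sprr2a2 overlap each other on the map, and 96.3% and 96.5% of the 50-base windows of their transcripts occur in another gene, so a count near 0 does not show a lack of their RNA.

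The Sprr genes encode short proline-rich proteins that act as cross-bridges between other envelope proteins. Of 13 tested, 7 had a positive and 6 a negative log2 fold change, with a median of 0.03 and a range from -0.25 to 0.85. Leaving out 1 library at a time gave medians between -0.01 (without Experimental 2) and 0.16 (without Littermate 4 or Experimental 4). With a Y-linked covariate the median was 0.20. Among the Sprr genes, those with an unadjusted p under 0.05 by edgeR were Sprr2b and Sprr2h, both of the Sprr2 cluster. Both are genes of 2 exons on the plus strand whose coding bases all lie in exon 2, as in most Sprr2 genes.

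Sprr2h (ENSMUSG00000046259, chromosome 3, 92385685 to 92387324) had a lowest, median and highest level of 141, 159 and 225 normalized CPM in Experimental libraries, against 136, 88.3, 104 and 106 CPM in Littermates 1 to 4. The groups did not overlap, although Littermate 1 came within a few CPM of the lowest Experimental library. The means were 173 ± 34.1 CPM (SD, n = 6) in Experimental and 109 ± 20.03 CPM (SD, n = 4) in Littermate libraries. The log2 fold change was 0.67 with a standard error of 0.15 (95% interval 0.34 to 1.00, edgeR, adjusted p = 0.112). DESeq2 gave 0.68 with an adjusted p of 0.00353, and over all settings tried the adjusted p of Sprr2h ran from 0.00353 to 0.766. The highest came from edgeR with a Y-linked covariate, where the log2 fold change was 0.72. No 50-base window of Sprr2h occurs exactly in another gene. Near matches were not counted, and Sprr2e and Sprr2i each differ from Sprr2h at 1 of the first 60 coding bases. Whether reads of relatives were assigned to Sprr2h was therefore not tested.

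Sprr2b (ENSMUSG00000050092, chromosome 3, 92316705 to 92318085) stood at 72.3, 117 and 201 CPM (lowest, median and highest) in Experimental libraries, against 99.6, 63.2, 71.2 and 49.4 CPM in Littermates 1 to 4. Experimental 6 lay among the Littermates and the other 5 Experimental libraries lay above all of them. The means were 127 ± 43.1 CPM (SD, n = 6) in Experimental and 70.9 ± 21.2 CPM (SD, n = 4) in Littermate libraries, a log2 fold change of 0.85 with a standard error of 0.28 (95% interval 0.22 to 1.48, edgeR, adjusted p = 0.295). Of its windows 13.7% occur in Sprr2a1, so part of its reads may have been left out or shared, which was not tested.

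The other tested Sprr2 genes had smaller differences of either sign, and their difference from this pair was not tested. Sprr2d stood at 139, 176 and 224 CPM in Experimental libraries, against 199, 192, 153 and 166 CPM in Littermate libraries, a log2 fold change of -0.00 (95% interval -0.26 to 0.26). Sprr2e stood at 16.3, 19.6 and 33.1 CPM in Experimental libraries, against 26.2, 28.7, 29.1 and 20.7 CPM in Littermate libraries, with a log2 fold change of -0.24 and an interval from -0.64 to 0.17. In both genes the groups overlapped. Sprr2f (log2 fold change -0.18), Sprr2i (-0.08), Sprr2g (0.08), Sprr2k (-0.04) and Sprr2j-ps (-0.25) lay on either side of 0, none with an unadjusted p under 0.05. Sprr2a3, the most abundant of the cluster per kilobase, stood at 284, 442 and 568 CPM in Experimental libraries, against 436, 308, 416 and 287 CPM in Littermate libraries, with a log2 fold change of 0.24 and an interval from -0.20 to 0.69. It shares 47.4% of its windows with Sprr2a1, so its level is uncertain.

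The promoters of the cluster are shown because 7 of them, those of Sprr2b and Sprr2h included, carry the same 3 short motifs at nearly the same places. Each line gives the 220 bases before the RefSeq start site on GRCm38.p6, plus strand, 5′ to 3′. Capitals mark the AP-1 motif TGANTCA, the octamer ATTTGCAT and the TATA motif TATAAA, in this order.
Sprr2h promoter: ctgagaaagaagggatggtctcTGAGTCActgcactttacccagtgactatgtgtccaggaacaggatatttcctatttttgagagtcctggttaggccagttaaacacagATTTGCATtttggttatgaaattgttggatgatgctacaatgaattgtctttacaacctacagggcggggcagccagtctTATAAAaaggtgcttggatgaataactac
Sprr2b promoter: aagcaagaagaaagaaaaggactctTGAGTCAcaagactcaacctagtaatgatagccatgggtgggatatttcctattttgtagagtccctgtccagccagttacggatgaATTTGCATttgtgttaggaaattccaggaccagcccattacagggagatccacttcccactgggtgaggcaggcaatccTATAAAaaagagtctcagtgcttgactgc
Sprr2d promoter: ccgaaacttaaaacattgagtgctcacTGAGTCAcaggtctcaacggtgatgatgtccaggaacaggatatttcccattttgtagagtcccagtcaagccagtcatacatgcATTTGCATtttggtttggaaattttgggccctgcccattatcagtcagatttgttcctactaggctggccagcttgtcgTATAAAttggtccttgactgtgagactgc
Sprr2e promoter: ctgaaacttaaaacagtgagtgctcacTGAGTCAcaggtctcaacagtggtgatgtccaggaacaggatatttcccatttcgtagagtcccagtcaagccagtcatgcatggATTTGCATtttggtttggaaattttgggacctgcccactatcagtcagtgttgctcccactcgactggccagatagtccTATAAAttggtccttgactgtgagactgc
Sprr2i promoter: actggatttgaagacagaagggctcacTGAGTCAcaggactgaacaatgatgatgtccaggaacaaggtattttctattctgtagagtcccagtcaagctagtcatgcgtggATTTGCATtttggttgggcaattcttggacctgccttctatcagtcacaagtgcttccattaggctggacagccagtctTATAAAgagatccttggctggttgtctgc
The windows are chr3:92385465-92385684, chr3:92316485-92316704, chr3:92338920-92339139, chr3:92351923-92352142 and chr3:92407771-92407990.

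Counted back from the start site, the first bases of the 3 motifs stood at -198, -109 and -29 in Sprr2h, at -195, -108 and -29 in Sprr2b, and at -193, -108 and -29 in Sprr2d, Sprr2e and Sprr2i. AP-1 sites bind Fos and Jun proteins, known for their control of human SPRR1 genes, and octamers bind POU factors, known for their control of human SPRR2A. Both strands of the 250 bases before each start were searched, and the motifs do not overlap in the promoters shown. A promoter was found in the RefSeq table for 44 of the 48 genes. All 3 motifs occurred together in 7 of 10 Sprr2 promoters (Sprr2b, Sprr2d, Sprr2e, Sprr2f, Sprr2h, Sprr2i and Sprr2k) and in 14 of 32851 promoters in all, or 0.0426%. The other Sprr2 promoters were those of Sprr2a1, Sprr2a2 and Sprr2a3. The window of Sprr2a3 ends at 92285353, far before the gene start of 92288569 in the files, so it may not be the promoter in use. None of the 19 Lce promoters held TGANTCA, against 6.75% of all promoters, and 5 of the 11 others held it (Lor, Ivl, Crnn, Flg2 and Rptn). The window of Flg2 likewise ends at 93197322, before its annotated gene start of 93200210, and that of Lce1a2 lies inside its annotated span. Either may not be the promoter in use. ATTTGCAT occurred in 1.60% of all promoters and TATAAA in 12.4%. A match is a stretch of letters and was not tested as a site.

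The coding sequences show how close the cluster is and where its members part. The first 60 coding bases of the same 5 genes on GRCm38, plus strand, are given with capitals at each base that differs from Sprr2h.
Sprr2h coding start: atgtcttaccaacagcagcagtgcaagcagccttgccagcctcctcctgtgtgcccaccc
Sprr2b coding start: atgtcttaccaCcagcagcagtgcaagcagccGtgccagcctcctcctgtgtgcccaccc
Sprr2d coding start: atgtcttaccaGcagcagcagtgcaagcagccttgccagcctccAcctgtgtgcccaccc
Sprr2e coding start: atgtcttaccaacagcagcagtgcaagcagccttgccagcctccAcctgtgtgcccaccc
Sprr2i coding start: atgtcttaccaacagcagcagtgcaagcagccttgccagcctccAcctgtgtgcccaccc
The stretches are chr3:92386632-92386691, chr3:92317449-92317508, chr3:92340254-92340313, chr3:92352864-92352923 and chr3:92408716-92408775, all in exon 2. Sprr2b and Sprr2d each differed from Sprr2h at 2 of these 60 bases, and Sprr2e and Sprr2i at 1. Over the whole coding sequence the order was another one: Sprr2h and Sprr2b were each other's closest relative, with 80.25% identical bases, and they have among the longer coding sequences of the cluster, 324 bases in Sprr2h and 294 in Sprr2b. Sprr2e and Sprr2i were 96.9% identical, with 228 coding bases each. Between promoters Sprr2h was closest to Sprr2k, at 80.6% identity, against 62.45% to Sprr2b. Sprr2k had a low level, at 1.69 to 2.61 CPM in Experimental and 1.49 to 2.88 CPM in Littermate libraries.

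**Figure D2:**
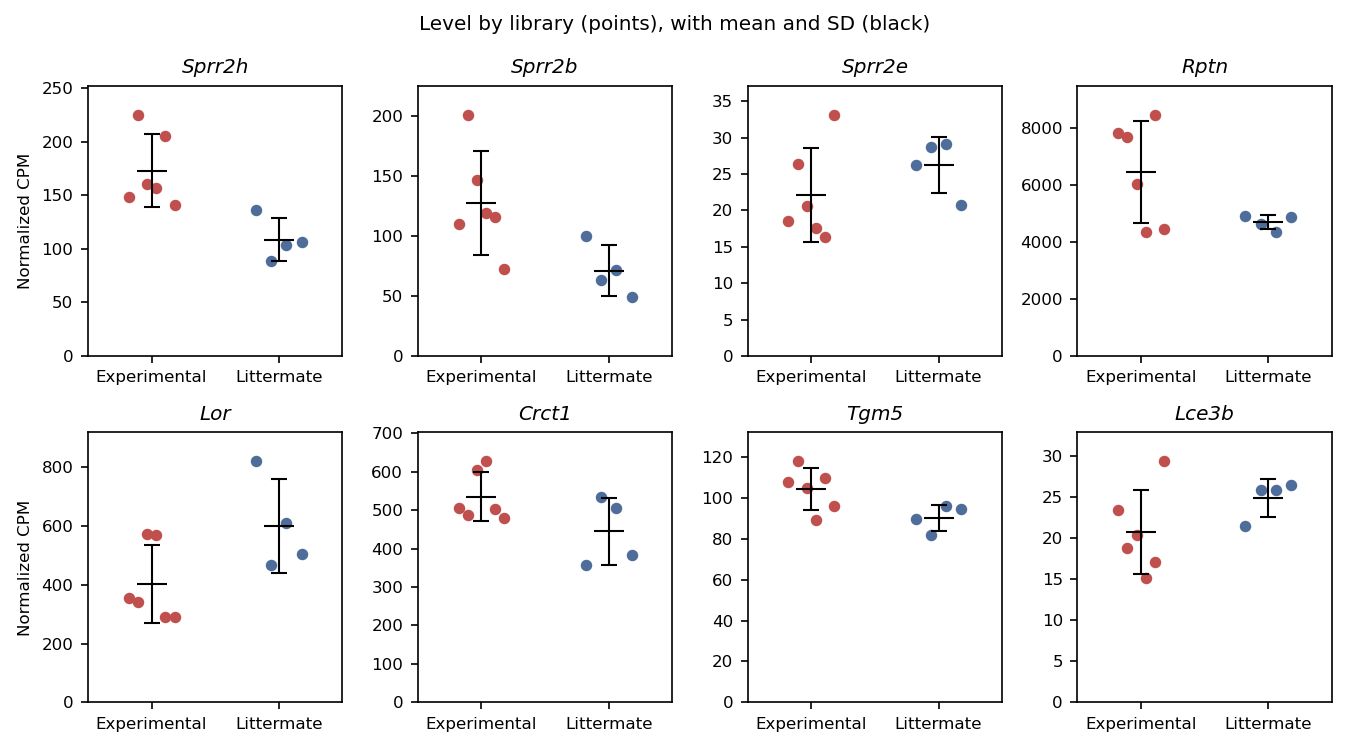
Normalized CPM of 8 genes in each library (points), with mean and SD in black, Experimental on the left and Littermate on the right of each panel; the vertical axes start at 0. Sprr2h is the panel without overlap, Sprr2b has 1 Experimental library among the Littermates, and Rptn is widely spread in Experimental and tightly grouped in Littermate libraries.

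Sprr1a and Sprr1b are the most abundant small proline-rich genes outside the Sprr2 cluster and encode longer bridging proteins. Sprr1a stood at 445, 731 and 945 CPM in Experimental libraries, against 648, 370, 717 and 664 CPM in Littermate libraries, with a log2 fold change of 0.26 and an interval from -0.25 to 0.77. Sprr1b stood at 439, 490 and 519 CPM in Experimental libraries, against 578, 316, 360 and 425 CPM in Littermate libraries, with a log2 fold change of 0.20 and an interval from -0.09 to 0.50. For both the groups overlapped, and neither shares a window with another gene. Sprr4 differed most among the Littermate mice. It stood at 11.3, 21.0 and 31.8 CPM in Experimental libraries, against 7.28, 3.005, 43.6 and 31.3 CPM in Littermate libraries. Its SD among Littermates, 1.72 on the log2 scale, was the largest of the 45 genes. Among Experimental libraries its SD was 0.48, below the 0.53 of Sprr2f. Its log2 fold change was 0.03 (95% interval -1.37 to 1.42).

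The Lce genes encode small cysteine-rich proteins that are laid on the envelope in the last steps of cornification, with Lce1 genes typical of intact skin and, in human skin, LCE3 genes known for their induction in psoriasis and after wounding. All 20 were tested, 14 were positive and 6 negative, and their log2 fold changes ran from -0.26 to 0.20 with a median of 0.09. That median rested on single libraries: leaving out Littermate 4 or Experimental 3 gave 0.01, Experimental 4 gave 0.04, Experimental 6 gave 0.15 and Littermate 3 gave 0.17. With a Y-linked covariate it was -0.01. None had an unadjusted p under 0.05 by edgeR. With all libraries 12 of 13 Lce1 genes were positive (median 0.10) and 2 of 6 Lce3 genes (median -0.03). The difference between subfamilies was not tested, and members of a family share sequence and libraries.

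Among Lce1 genes the most abundant per kilobase were Lce1b, Lce1a1, Lce1a2 and Lce1i. Lce1b stood at 247, 335 and 474 CPM in Experimental libraries, against 336, 325, 390 and 242 CPM in Littermate libraries, with a log2 fold change of 0.10 and an interval from -0.29 to 0.49. Lce1a1 stood at 252, 340 and 448 CPM in Experimental libraries, against 307, 354, 365 and 253 CPM in Littermate libraries, with a log2 fold change of 0.11 and an interval from -0.21 to 0.42. The groups nearly coincide in both. Lce1a2 (0.09) and Lce1i (0.12) had like fold changes. Lce1k had the largest one of the family, 0.20 (95% interval -0.11 to 0.50), at 109, 150 and 184 CPM in Experimental libraries, against 124, 142, 153 and 108 CPM in Littermate libraries. Of Lce1 windows between 0% (Lce1m) and 27.1% (Lce1i) occur in another gene. The annotated span of Lce1a2 also contains Lce1c on the opposite strand, and the library protocol describes no strand marking.

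Lce3b had the lowest p of the Lce genes. It stood at 15.1, 19.6 and 29.3 CPM in Experimental libraries, against 21.4, 25.9, 25.8 and 26.5 CPM in Littermate libraries, with a log2 fold change of -0.26 (95% interval -0.59 to 0.07, edgeR, adjusted p = 0.537). Experimental 6 lay above all Littermates and 4 Experimental libraries lay below all of them. Lce3a lay on the same side, at -0.24, while Lce3c stood at -0.03, Lce3d at -0.03, Lce3e at 0.02 and Lce3f at 0.13. Up to 49.3% of the windows of an Lce3 gene (Lce3d) occur in another gene, so values of single Lce3 genes are uncertain. Lce6a, a lone relative, stood at -0.01.

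Loricrin makes up most of the protein mass of the mature epidermal envelope. Lor (ENSMUSG00000043165, chromosome 3, 92080271 to 92083142, minus strand) stood at 290, 349 and 573 CPM in Experimental libraries, against 820, 467, 610 and 503.7 CPM in Littermates 1 to 4. Experimental 3 and 4, at 573 and 570 CPM, lay among the Littermates and the other 4 lay below all of them. The means were 403 ± 133 CPM (SD, n = 6) in Experimental and 600 ± 159 CPM (SD, n = 4) in Littermate libraries, and the log2 fold change was -0.57 with a standard error of 0.24 (95% interval -1.11 to -0.03, edgeR, adjusted p = 0.392). Without Littermate 1, the highest library, it was -0.38, and with an offset for GC content -0.36. The transcript of Lor is 68.3% G and C.

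Involucrin, an early scaffold protein onto which others are joined, was close to even. Ivl stood at 138, 171 and 212 CPM in Experimental libraries, against 180, 116, 219 and 122 CPM in Littermate libraries, with a log2 fold change of 0.11 and an interval from -0.27 to 0.50. Crct1, a cysteine-rich gene between Lce3f and Lce1m, stood at 480, 505 and 627 CPM in Experimental libraries, against 358, 533, 505 and 384 CPM in Littermate libraries. Its log2 fold change was 0.26 (95% interval 0.00 to 0.53, edgeR, adjusted p = 0.420), and 2 Experimental libraries lay above all Littermates.

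Rptn, Hrnr, Flg2 and Crnn belong to the S100-fused genes, large repeat proteins with a calcium-binding start that are stored in granules or joined to the envelope. Rptn (ENSMUSG00000041984, chromosome 3, 93393699 to 93399442) encodes repetin and gave more counts than any other of the 48 genes, 25.1% to 41.8% of their sum in Experimental and 25.8% to 32.0% in Littermate libraries. It stood at 4359, 6841 and 8454 CPM in Experimental libraries, against 4911, 4634, 4355 and 4885 CPM in Littermates 1 to 4. Experimental 1, 2, 3 and 5 lay above all Littermates, and Experimental 4 and 6 lay within their range. The means were 6459 ± 1785 CPM (SD, n = 6) in Experimental and 4696 ± 260 CPM (SD, n = 4) in Littermate libraries, and the log2 fold change was 0.46 with a standard error of 0.18 (95% interval 0.07 to 0.85, edgeR, adjusted p = 0.343). On the log2 scale its SD was 0.42 among Experimental and 0.08 among Littermate libraries.

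Tchh, a neighbour of Rptn in the complex, was also widely spread among Experimental libraries. It encodes trichohyalin, a marker of the inner root sheath of the hair follicle, where repetin is also known to be made. Tchh stood at 1972, 1462, 737, 938, 2012 and 874 CPM in Experimental 1 to 6, against 1030, 1194, 710 and 1097 CPM in Littermates 1 to 4, and Rptn at 7815, 7665, 6018, 4359, 8454 and 4446 CPM in Experimental 1 to 6. Experimental 1, 2 and 5 were highest for both genes. The keratin genes of the inner root sheath list did not follow this order in Experimental 5. There Krt25, Krt71 and Krt73 stood at 1.22, 0.699 and 0.612 CPM, each its lowest Experimental level. Krt27 and Krt28 stood at 0.35 and 1.14 CPM there, within the range of the other Experimental libraries. Experimental 1 was the highest library for Krt25 (4.875 CPM) and Krt71 (7.40 CPM). Tchh had a log2 fold change of 0.40 (95% interval -0.29 to 1.09, edgeR, adjusted p = 0.659). All 5 tested inner root sheath markers of 6 listed had positive fold changes, none passed, and their summed level was 740 to 2016 CPM in Experimental and 715 to 1198 CPM in Littermate libraries, nearly all of it Tchh. The summed level of the 6 hair shaft markers found of 7 listed was 1.05 to 3.32 CPM in Experimental and 0.779 to 1.64 CPM in Littermate libraries. The part of follicle content in the Rptn values was not tested.

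The other S100-fused genes differed less. Hrnr, the gene of hornerin, stood at 2163, 2914 and 3728 CPM in Experimental libraries, against 2511, 3298, 2832 and 2239 CPM in Littermate libraries, with a log2 fold change of 0.14 and an interval from -0.18 to 0.45. Flg2, a filaggrin relative, stood at -0.07 (95% interval -0.47 to 0.32), and Crnn at 0.19 (95% interval -0.29 to 0.67). Filaggrin itself was not analysed here. None of these 4 genes shares a window with another gene.

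The start regions of Rptn and Lor are shown because these genes, at either end of the set on the map, had differences of opposite sign. The 120 bases before the RefSeq start on GRCm38.p6 are given 5′ to 3′ on each gene's own strand, with TGANTCA and TATAAA in capitals.
Rptn promoter: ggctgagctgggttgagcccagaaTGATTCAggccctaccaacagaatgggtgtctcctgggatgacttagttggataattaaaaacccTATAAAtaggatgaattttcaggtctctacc
Lor promoter: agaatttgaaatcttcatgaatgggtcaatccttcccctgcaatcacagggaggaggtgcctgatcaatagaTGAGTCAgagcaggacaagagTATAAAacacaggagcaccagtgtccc
The windows are chr3:93393579-93393698 on the plus strand and chr3:92083143-92083262 on the minus strand. Both hold an AP-1 motif and a TATA motif, at -96 and -31 in Rptn and at -48 and -27 in Lor, and neither holds the octamer.

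Transglutaminases join the precursors, caspase 14 cleaves filaggrin, and corneodesmosin holds cornified cells together. Tgm5 (chromosome 2) had the lowest p of these 5 genes. It stood at 89.2, 106 and 118 CPM in Experimental libraries, against 89.5, 81.6, 95.7 and 94.3 CPM in Littermate libraries, with 5 of 6 Experimental libraries above all Littermates. Its log2 fold change was 0.21 with a standard error of 0.08 (95% interval 0.03 to 0.38, edgeR, adjusted p = 0.331). Casp14 stood at 197, 255 and 366 CPM in Experimental libraries, against 237, 180, 230 and 246 CPM in Littermate libraries, with a log2 fold change of 0.24 and an interval from -0.12 to 0.60. The groups overlap in Casp14, and Experimental 5 was its highest library.

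Tgm1, Tgm3 and the gene of corneodesmosin, Cdsn, had intervals that span 0. Tgm1, the membrane-bound enzyme whose loss in humans causes lamellar ichthyosis, stood at 274, 305 and 330 CPM in Experimental libraries, against 285, 274, 306 and 317 CPM in Littermate libraries, with a log2 fold change of 0.03 and an interval from -0.12 to 0.19. Tgm3, a soluble enzyme of late cornification and hair, stood at 0.08 (95% interval -0.16 to 0.31). Cdsn stood at 996, 1259 and 1465 CPM in Experimental libraries, against 1389, 1174, 1123 and 1499 CPM in Littermate libraries, with a log2 fold change of -0.05 and an interval from -0.29 to 0.20. The groups overlap in all 3 genes.

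**Figure D3:**
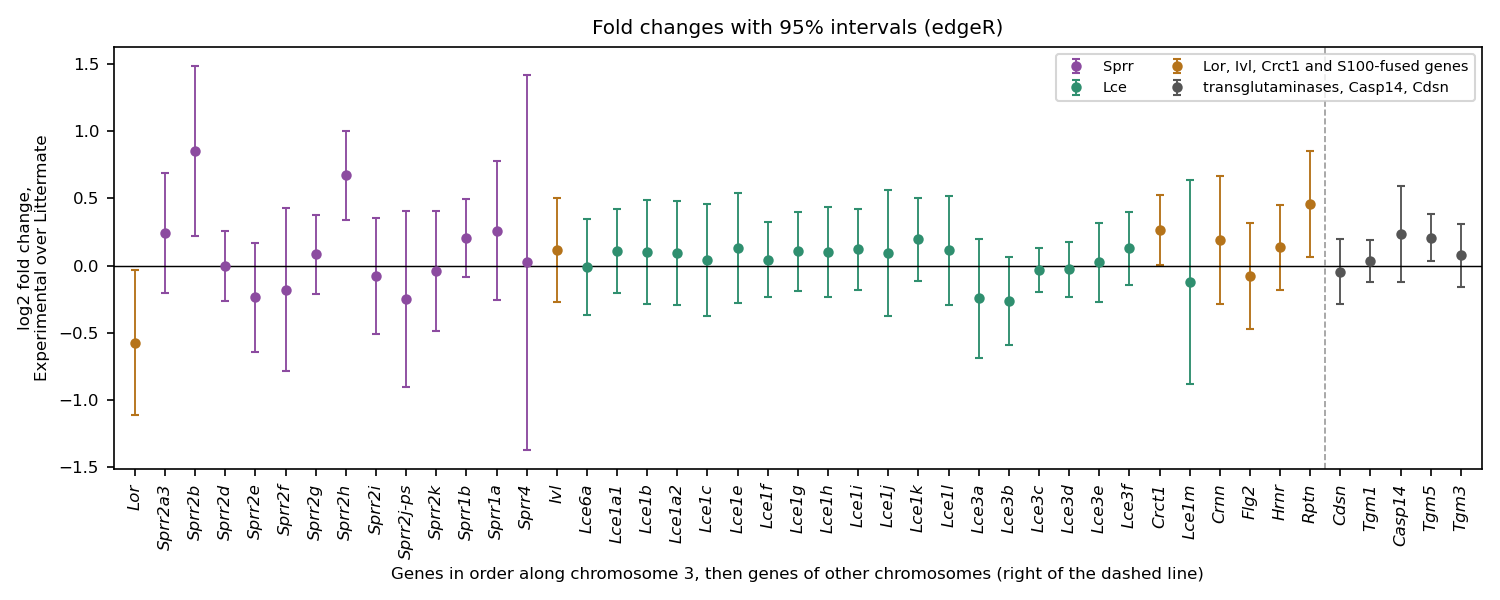
Log2 fold change (Experimental over Littermate, edgeR) of the 45 tested genes with 95% intervals, in map order along chromosome 3 and then genes of other chromosomes; colours give the role groups. Sprr2b at 0.85 and Sprr2h at 0.67 stand highest and Lor at -0.57 lowest, most Lce1 points lie just above 0, and Sprr4 has the widest interval.

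Early and late genes of cornification were set against each other. The early genes were the Sprr genes, Ivl and Tgm1 (18, of which 15 were tested), and the late genes were the Lce genes, Lor, Hrnr, Flg2, Rptn, Tgm3, Casp14 and Cdsn (27, all tested). Crnn, Crct1 and Tgm5 were placed in neither. Sprr genes made up 13 of the 15 tested early genes and Lce genes 20 of the 27 late genes, so the contrast is largely Sprr against Lce. Sprr proteins and loricrin share a step in the order given above, so the split does not separate stages cleanly. None of either kind passed the test. The median log2 fold change was 0.03 for early genes, with 9 of 15 positive, and 0.09 for late genes, with 18 of 27 positive. The early median minus the late median was -0.06, and its sign depended on single libraries: leaving out Experimental 4 gave 0.07, Littermate 4 gave 0.06, Experimental 3 gave 0.03 and Experimental 6 gave -0.08. With a Y-linked covariate this difference was 0.13.

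The balance of early to late genes varied more among mice than between groups. For each library the mean log2 deviation of late genes from their gene means was subtracted from that of early genes. The difference was 0.07, 0.21, -0.25, -0.28, 0.12 and 0.44 in Experimental 1 to 6, against -0.09, -0.27, -0.04 and 0.10 in Littermates 1 to 4. Experimental 6 held the highest early-to-late balance and Experimental 4 the lowest, so the Experimental group spanned the whole range of the Littermates. The means were 0.05 ± 0.28 (SD, n = 6) in Experimental and -0.08 ± 0.15 (SD, n = 4) in Littermate libraries.

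**Figure D4:**
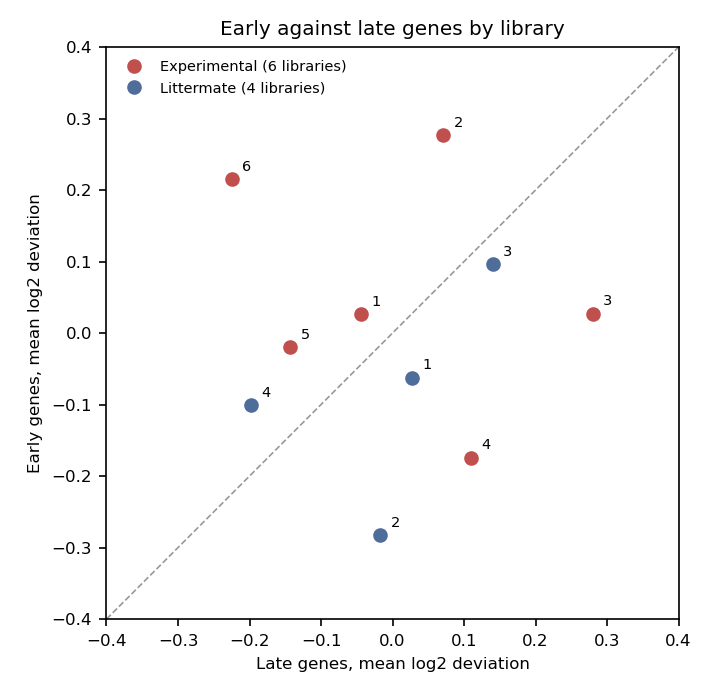
Mean log2 deviation of the 15 tested early genes (vertical) against that of the 27 late genes (horizontal), 1 point per library with its replicate number, Experimental in red and Littermate in blue; the dashed line marks equal deviation. Experimental 6 lies farthest above the line, and Experimental 4, Littermate 2 and Experimental 3 lie farthest below it.

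The Lce1 genes were high or low in the same mice. Of the 13 Lce1 genes, 11 were highest in Experimental 3, and 7 were lowest in Experimental 6 and the other 6 in Littermate 4. The mean log2 deviation of the Lce1 genes was 0.46 in Experimental 3 and -0.41 in Experimental 6, against -0.39 in Littermate 4 and 0.22 in Littermate 3. Of the 10 Sprr2 genes tested, 6 were highest in Experimental 6 and 3 in Experimental 2. Sprr2h and Sprr2b went against the 6, at 141 and 72.3 CPM in Experimental 6, their lowest Experimental level. Of the 6 Lce3 genes, 3 were highest in Experimental 6, and the other 3 in Experimental 1, Experimental 3 and Littermate 4. Experimental 6 was thus lowest of the Experimental libraries for Lce1 and highest for Sprr2 and Lce3 by mean deviation, with Experimental 2 beside it for Sprr2 (0.28 in Experimental 6 and 0.27 in Experimental 2). Genes of a family share windows, as given above, so these counts are not independent.

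By median, the Sprr and Lce genes spread more among mice than the typical gene, and the other members did so to a lesser degree. The median within-group SD on the log2 scale was 0.40 in Experimental and 0.30 in Littermate libraries for Sprr genes, and 0.32 in Experimental and 0.23 in Littermate libraries for Lce genes. For the other 12 members it was 0.24 in Experimental and 0.22 in Littermate libraries. Over all genes tested it was 0.15 in Experimental and 0.18 in Littermate libraries. Not every member spread more: Tgm1, Tgm5 and Lce3c lay below the median over all genes tested in both groups.

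**Figure D5:**
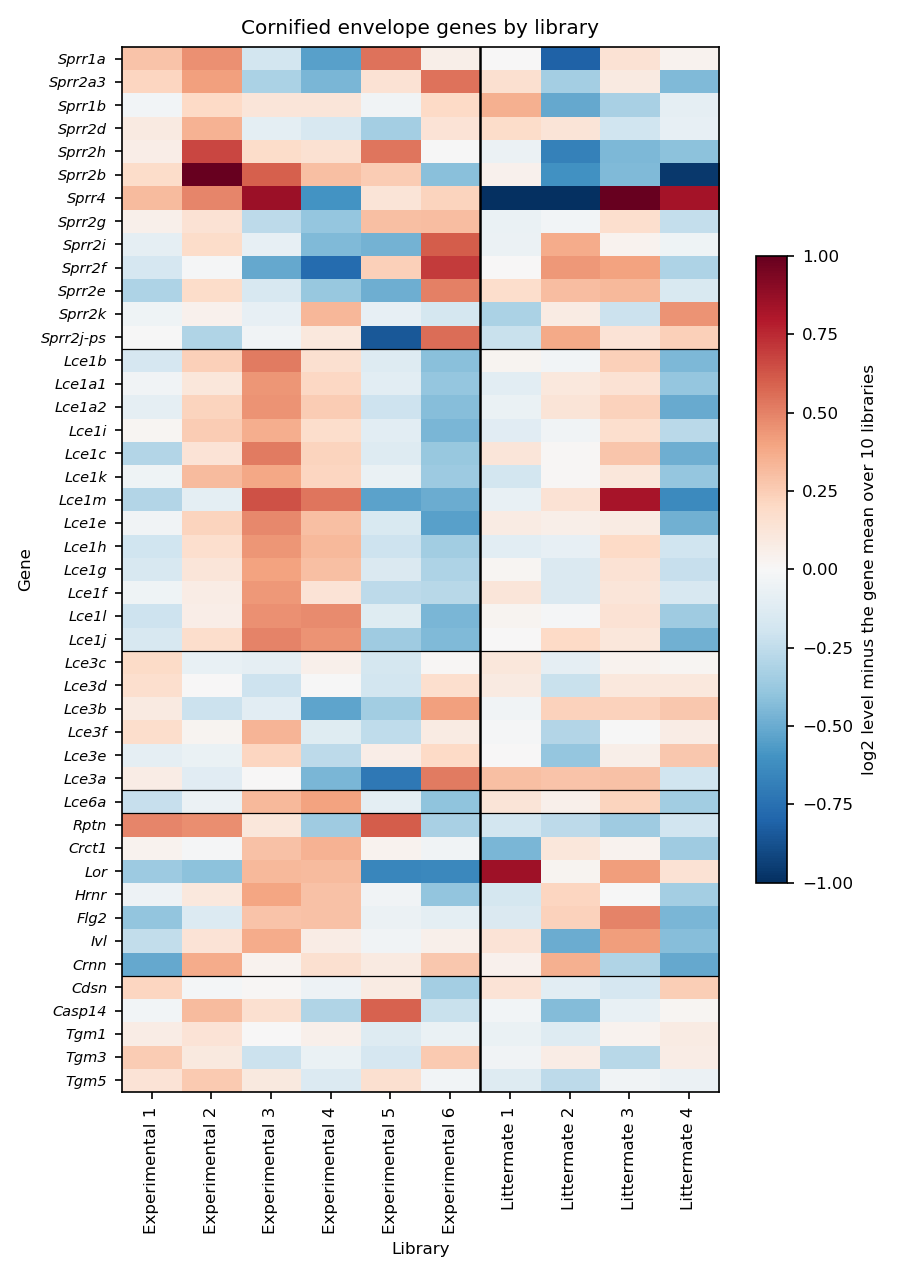
Log2 level of each tested gene minus its mean over the 10 libraries, with genes in rows by role group and libraries in columns, Experimental 1 to 6 left of the line and Littermate 1 to 4 right of it; colours are capped at 1 and -1. The Lce1 block is red in Experimental 3 and blue in Experimental 6 and Littermate 4, while Sprr2e, Sprr2f and Sprr2i are red in Experimental 6.

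Other genes of the envelope and its control were read from lists of scaffold and regulator genes. Of 28 scaffold and differentiation genes 27 were tested, none passed, 15 were positive and 12 negative, and the median log2 fold change was 0.03. At an unadjusted p under 0.05, 2 of these were higher and 4 lower by edgeR, against 3.65% higher and 8.1% lower of all genes tested. The sign of the median depended on single libraries: it was -0.05 without Littermate 4, -0.04 without Experimental 3 and -0.01 without Littermate 2, and as high as 0.09 without Littermate 1. With a Y-linked covariate the median was -0.09. Plec, the gene of the linker protein plectin, had the lowest p. It stood at 1043, 1156 and 1497 CPM in Experimental libraries, against 1762, 1439, 1716 and 2015 CPM in Littermate libraries, and only Experimental 4 lay within the Littermate range. Its log2 fold change was -0.54 (95% interval -0.78 to -0.29, edgeR, adjusted p = 0.0895), and it passed with DESeq2 (adjusted p = 0.00353), with no filter on low counts (0.0214), with voom (0.0410) and without Littermate 2 (0.0185, or 0.0200 with Experimental 6 left out as well), while over all settings its adjusted p ran from 0.00353 to 0.808. With an offset for GC content it was -0.37. Jup, the gene of the desmosome protein plakoglobin, stood at -0.38 on the log2 scale (adjusted p = 0.306 by edgeR). It passed without Littermate 2 (-0.51, adjusted p = 0.0369) and when Experimental 6 was left out as well, stood at -0.21 without Littermate 4 and at -0.10 with a Y-linked covariate, and its adjusted p ran from 0.0369 to 0.984 over all settings. Blmh, a protease that degrades filaggrin, stood at 0.31 on the log2 scale (adjusted p = 0.337 by edgeR). It passed without Littermate 2 (0.46, adjusted p = 0.0426) and when Experimental 6 was left out as well, and its adjusted p ran from 0.0249 to 0.926 over all settings.

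Of 30 transcription regulators of keratinocyte differentiation all were tested, none passed by edgeR, 6 were positive and 24 negative, and the median was -0.11. At an unadjusted p under 0.05, 1 was higher and 8 lower, against 3.65% higher and 8.1% lower of all genes tested, of which 50.4% were negative. With the GC offset 19 of the 30 were negative and the median was -0.07. The median was -0.04 without Littermate 4 and -0.02 with a Y-linked covariate.

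Jun, a subunit of AP-1, stood at 73.7, 82.9 and 85.2 CPM in Experimental libraries, against 100.1, 89.7, 96.5 and 99.9 CPM in Littermate libraries. Every Experimental library lay below every Littermate library, as in 1.35% of all genes tested. Its log2 fold change was -0.24 (95% interval -0.38 to -0.11, edgeR, adjusted p = 0.145; DESeq2, adjusted p = 0.0273). Tfap2a, the gene of AP-2 alpha, stood at -0.55 (edgeR, adjusted p = 0.175; DESeq2, adjusted p = 0.0479), with Littermate 2 at 22.6 CPM among the Experimental libraries. Without Littermate 2 both passed by edgeR (adjusted p = 0.0438 for Jun and 0.00791 for Tfap2a). Over all settings the adjusted p ran from 0.0273 to 0.822 for Jun and from 0.00791 to 0.902 for Tfap2a. Pou2f3, a POU factor of the epidermis that binds octamers, stood at 0.02 (95% interval -0.25 to 0.30). Vdr, the receptor of MC903, stood at -0.14 (95% interval -0.44 to 0.16).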

How the data were processed

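RNA of whole ear skin was measured in 6 Experimental and 4 Littermate libraries. Per the labels' protocols, ribosomal RNA was removed from total RNA, cDNA was primed with random hexamers, and single 50-base reads were sequenced; no strand marking is described. The submitters' processing notes name the mm10 genome, STAR 2.0.4b, featureCounts 1.4.5 and Subread. The sources used here do not give the annotation or how reads matching several genes were counted, which matters most for Sprr2 and Lce genes. Per the file headers, the authors deposited the read count per gene, a CPM (count scaled to a library total of 1000000) and an RPKM (that CPM per kilobase of gene length), and only the counts entered tests. Ensembl IDs were matched to symbols for 97.3% of the 41388 genes.

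The quasi-likelihood test of edgeR 4.0.16 was run on the counts (filterByExpr, TMM factors, robust dispersion, two-sided, group as the only term), with Benjamini-Hochberg adjustment over all 16830 genes kept and a threshold of 0.05. Normalized CPM uses the TMM factors (0.984 to 1.02), length-scaled levels divide it by gene length, and errors are SD over libraries. DESeq2 1.42.0, voom in limma 3.58.1, other size factors and filters, a GC offset, a Y-linked covariate, a replicate block and left-out libraries were alternatives. The Y-linked covariate was the log2 summed level of Ddx3y, Eif2s3y, Kdm5d and Uty in each library, which differs with the sex of the mouse. Its balance between the groups was not tested. Where this covariate goes with group, the 2 cannot be told apart, so the adjusted p-values with it are not an ordinary check. Shared 50-base windows were counted as exact matches over GENCODE M21 transcripts on both strands. Promoters are those of RefSeq, GRCm38.p6. The genes named with full values are, per role group, the 4 highest by length-scaled level and the 2 of lowest p, and the 3 of lowest p in the scaffold and regulator lists; other members were added where they complete a family, and 1 gene of the regulator list is not reported here by name. The members, lists, alternatives and tests were chosen with earlier results of these data known, so no pattern among them is independent support.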

Additional observations from a re-analysis of the deposited data

Results flagged for a closer look

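In Lce3b, Littermate 1 stood apart from the other Littermates. Its level was 21.4 normalized CPM, against 25.8 to 26.5 CPM in the other 3, a gap of 0.864 of the group's range. Among 54 groups of values examined this was the 1 that stood out so far. If chance gives about 1 in 20, 1 in 54 is no more than chance gives. The 54 groups come from 27 genes in the same libraries and are not independent, so this rate is only a rough guide. Lce3b shares 12.1% of its 50-base windows with other genes.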

How the results depend on the processing

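No cornified envelope gene passed under any alternative except Sprr2h with DESeq2 (1 gene called, against 0 by edgeR). The log2 fold change of Sprr2h ran from 0.58 to 0.81 over the alternatives, that of Sprr2b from 0.68 to 1.07, that of Rptn from 0.37 to 0.56 and that of Lor from -0.72 to -0.36. With the Y-linked covariate the adjusted p by edgeR was 0.766 for Sprr2h, 0.854 for Sprr2b, 0.863 for Rptn and 0.917 for Lor. The log2 fold changes in that fit were 0.72, 0.86, 0.51 and -0.61 in the same order. The medians lay between -0.02 and 0.20 for Sprr genes, -0.01 and 0.20 for Lce genes and 0.07 and 0.17 for the other members. These moves were smaller than the pooled within-group SD of the per-library levels (0.172, 0.200 and 0.0923 on the log2 scale). That SD describes single libraries and is not the error of a median. For Sprr genes the move from 0.03 to 0.20 with the Y-linked covariate nearly equalled it. The early minus late median lay between -0.10 and 0.13 and so changed sign. The number of all genes called was less stable, at 3 in the edgeR test described above, 78 with no filter on low counts, 231 with DESeq2, 57 with voom and 563 without Littermate 2 and Experimental 6, and 3 to 343 with each library left out. It was 343 without Littermate 2, 28 without Experimental 6 and 8 without Littermate 3. Scaffold genes gave 1 call with no filter, 1 with DESeq2, 1 with voom, 3 without Littermate 2 and Experimental 6 and 0 to 3 with each library left out. Regulators gave 1 call with no filter, 3 with DESeq2, 4 without Littermate 2 and Experimental 6 and 0 to 4 with each library left out. The highest leave-one-out count was without Littermate 2 in both lists, and the cause was not tested. Replicate numbers did not pair the libraries: deviations of same-numbered libraries correlated at 0.03, -0.02, 0.09 and -0.02. A replicate block gave 67 calls over all genes and 0 among the cornified envelope genes. Genes near 0 (Sprr3, Sprr2a1, Sprr2a2) are limited by depth, and those that share windows by the unknown treatment of shared reads.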
